A study of Homo sapiens with 6 samples.

Results

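The inhibitor of DNA binding (ID) genes and the core of bone morphogenetic protein (BMP) signalling were examined in DU145 cells that overexpressed the circular RNA circCSPP1. The set was chosen by gene symbol and holds 10 of the 19727 genes in the deposited table: ID1, ID2, ID3 and ID4, the ligands BMP2 and BMP4, the receptors BMPR1A and BMPR2, and SMAD1 and SMAD6. DU145 is an established line of human prostate cancer cells. A lentivirus-NC group (3 libraries) was compared with a lentivirus-circCSPP1 group (3 libraries), and per the study's methods the lentiviral cells of both groups were kept as stable lines after puromycin selection. Polyadenylated RNA was sequenced, and the values are FPKM, fragment counts scaled to transcript length and to the fragment total of the library. Nothing states that the libraries of a group came from separate cultures, so p-values measure the spread between these libraries, which may be technical.

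BMP ligands bind a complex of type I and type II receptor kinases, which phosphorylate SMAD1, SMAD5 and SMAD9. These join SMAD4, enter the nucleus and switch on target genes, of which ID1, ID2 and ID3 are the best known. ID proteins hold a helix-loop-helix domain but no DNA-binding region, so they trap the E proteins (TCF3, TCF4 and TCF12) and keep epithelial and other cells from differentiating. SMAD6 and SMAD7 are feedback inhibitors, with SMAD6 acting mainly on the BMP branch and SMAD7 also on the TGF-beta branch.

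ID3 was the single member that passed the test, and it rose with circCSPP1, whereas ID1, its most abundant relative, measured nearly the same in both groups. BMPR2, SMAD1 and SMAD6 had lower values in every lentivirus-circCSPP1 library than in any lentivirus-NC library, but none of the 3 passed. ID2, BMP4 and BMPR1A overlapped between the groups. ID4 and BMP2 were at or close to 0 in all 6 libraries. A gene passed at an adjusted p under 0.05 (limma on log2(FPKM + 1), Benjamini-Hochberg adjustment over the 12322 genes that averaged 1 FPKM or more), and 8 of the 10 members were high enough to be tested. Over all genes tested, 11.4% passed, 4.69% higher and 6.66% lower. Thus 1 member of 8 is close to the share over all genes. Groups that did not overlap were found for 4 of the 8 members, against 36.4% of all genes tested, and the 3 lower ones stand against 20.5%. The median log2 fold change of the 8 members was -0.06 and that of all genes tested -0.03.

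**Figure D1:**
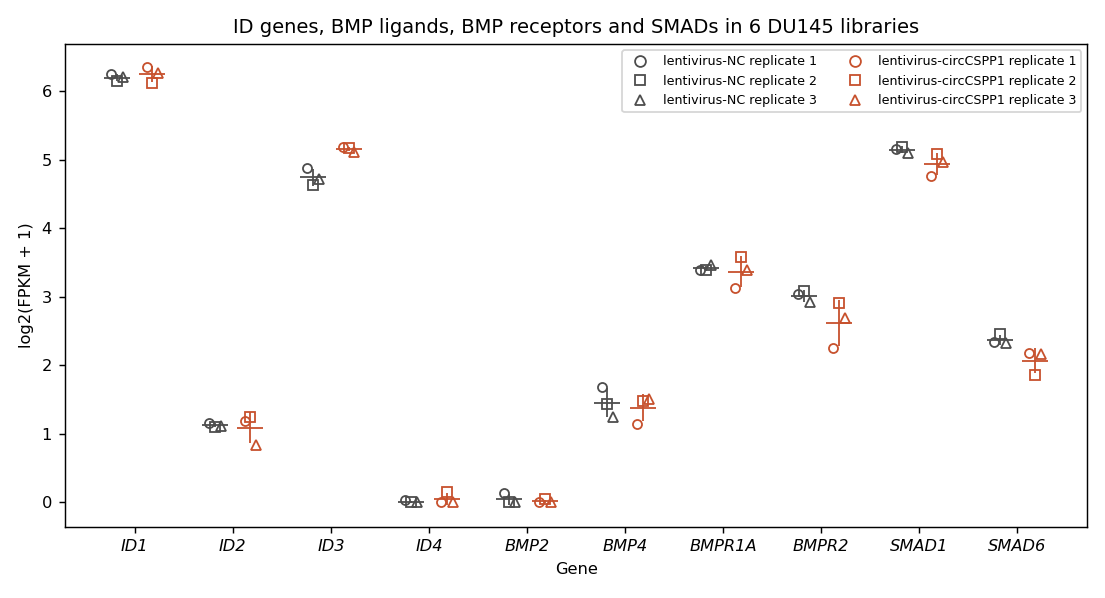
Level of the 10 members in each library, as log2(FPKM + 1). Symbols are libraries (circle, square and triangle for replicates 1, 2 and 3), bars are the mean and SD of 3 libraries, lentivirus-NC in grey and lentivirus-circCSPP1 in red. ID3 is higher in all 3 lentivirus-circCSPP1 libraries, and ID4 and BMP2 lie at the bottom of the scale.

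CSPP1, the gene the circle comes from, measured 9.11 to 10.1 FPKM with lentivirus-NC, against 14.5 to 22.8 FPKM with lentivirus-circCSPP1, a gene-level value that cannot separate circle, vector and linear transcript. By qRT-PCR the paper reported more circCSPP1 but no change of linear CSPP1 mRNA in its overexpressing DU145 cells. What raised the value here was not tested. The depth read from the low FPKM values was 28900000 to 36400000 fragments per library and overlapped between the groups. Of the marker lists, the 4 epithelial genes (KRT8, KRT18, EPCAM and CDH1) all fell, and their summed level was 1729 to 1801 FPKM with lentivirus-NC, against 715 to 854 FPKM with lentivirus-circCSPP1. Their part in the results below was not tested. Of the prostate luminal markers reported here, KLK3 was at 0 in all libraries and TMPRSS2 did not exceed 0.07 FPKM. The 5 fibroblast markers summed to 2.85 to 4.34 FPKM under lentivirus-NC and 1.30 to 1.97 under lentivirus-circCSPP1, of which COL1A1, the single one tested, fell and LUM was at 0 throughout. The 4 endothelial markers summed to 0.32 to 0.68 and 0.16 to 0.69 FPKM, and the 5 immune markers to 2.39 to 2.61 and 0.90 to 2.21 FPKM, nearly all of it CD14, with CD3E at 0. In bulk RNA, fewer cells of a type and less RNA per cell cannot be told apart. Lentivirus-circCSPP1 replicate 1 stood apart in base composition: the Spearman correlation, across genes averaging 10 FPKM or more, of its departure from the mean of its group's other libraries with transcript GC content was 0.807, against -0.753 and -0.555 for replicates 2 and 3 and -0.080 to 0.114 in lentivirus-NC. Replicate 1 is part of the mean used for replicates 2 and 3, so the values of a group are not independent. What sets replicate 1 apart is the sign of its value.

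The levels of the members, which FPKM puts on a scale per length, spanned a wide range. In lentivirus-NC the order of the means was ID1 (72.7 FPKM), SMAD1 (34.5), ID3 (25.9), BMPR1A (9.67), BMPR2 (7.11), SMAD6 (4.18), BMP4 (1.77) and ID2 (1.18), and in this order the libraries of each gene lay apart from those of the next. BMP2 and ID4, at the end, overlapped. In lentivirus-circCSPP1 the order of these 8 genes was the same but for one exchange, in which ID3 (33.8 to 35.4 FPKM) stood above SMAD1 (26.23 to 33.01 FPKM), and BMP4 and ID2 now overlapped. These are comparisons of ranges, with no test.

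ID1 is a direct BMP target that opposes differentiation and senescence in many epithelia. It measured 75.2, 69.8 and 72.9 FPKM in replicates 1, 2 and 3 of lentivirus-NC, and 81.1, 68.8 and 76.5 FPKM in replicates 1, 2 and 3 of lentivirus-circCSPP1. The groups overlapped, and lentivirus-circCSPP1 held both the highest and the lowest library. On average lentivirus-NC gave 72.7 ± 2.68 FPKM and lentivirus-circCSPP1 75.5 ± 6.21 FPKM (SD, n = 3), and the log2 fold change was 0.05 with a 95% interval of -0.16 to 0.26 (limma adjusted p = 0.76). About 2489 to 3274 fragments per library lay behind these values. Without lentivirus-circCSPP1 replicate 1 the log2 fold change was -0.0015.

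ID3, a close relative of ID1 that binds the same E proteins, measured 28.5, 23.8 and 25.3 FPKM in replicates 1, 2 and 3 of lentivirus-NC. In replicates 1, 2 and 3 of lentivirus-circCSPP1 it measured 35.4, 34.9 and 33.8 FPKM. Each library with circCSPP1 exceeded each control library, and their spread was the narrower one. The means were 25.9 ± 2.40 and 34.7 ± 0.860 FPKM (SD, n = 3), for a log2 fold change of 0.41 (SE 0.097, 95% interval 0.19 to 0.64, limma adjusted p = 0.036). The call rested on all but 1 of the libraries. Without lentivirus-NC replicate 1, 2 or 3 the adjusted p was 0.078, 0.16 and 0.14, and without lentivirus-circCSPP1 replicate 2 or 3 it was 0.067 and 0.11, with log2 fold changes of 0.36 to 0.48. Without lentivirus-circCSPP1 replicate 1 it was 0.021, and after a correction for transcript GC content and length, chosen after seeing the data, 0.019. In these settings 3514 of 12334 and 3512 of 12322 genes passed, against 1399 of 12322 in the main fit. With unmoderated variances the adjusted p of ID3 was 0.062, with the replicate number as a block 0.075, and with block and correction together 0.057. ID3 passed in 10 of the 18 alternatives.

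Set against each other within a library, the ID3 to ID1 ratio was 0.38, 0.34 and 0.35 in lentivirus-NC replicates 1, 2 and 3 and 0.44, 0.51 and 0.44 in lentivirus-circCSPP1 replicates 1, 2 and 3. The groups did not overlap. The exact two-sided permutation test gave p = 0.10, the smallest that 3 libraries against 3 allow, and this pair was picked after the values were seen. The summed ID level was 94.8 to 104.9 FPKM with lentivirus-NC, against 105.2 to 117.8 FPKM with lentivirus-circCSPP1, of which ID3 made up 25.1% to 27.2% and 30.1% to 33.2%.

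ID2 and ID4 were minor members in these cells. ID2 measured 1.23, 1.15 and 1.16 FPKM with lentivirus-NC, against 1.28, 1.37 and 0.78 FPKM with lentivirus-circCSPP1 (replicates 1, 2 and 3), where replicate 3 was the lowest of all 6. Its log2 fold change was -0.04 (95% interval -0.35 to 0.28, limma adjusted p = 0.89), on about 46 to 97 fragments per library. The sign turned without that replicate (0.09) and under quantile normalization (0.12). ID2-AS1 overlaps an exon of ID2 on the opposite strand, and whether the counting used strand is not given in the sources used here. ID4, which can act as an opponent of the other ID proteins, was listed at 0 in 4 libraries, at 0.02 FPKM in lentivirus-NC replicate 1 and at 0.11 FPKM in lentivirus-circCSPP1 replicate 2, about 9 fragments at most, and no difference was detectable at this depth.

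The 5 genes whose log2(FPKM + 1) followed ID1 most closely over the 6 libraries, out of 12321 compared, were SLC35E1, SLC41A3, AL512785.2, CSF1 and NDUFS8, with Pearson correlations of 0.97 to 0.99. All 5, like ID1, were highest in lentivirus-circCSPP1 replicate 1. ID3 correlated with ID1 at 0.44. The values are a description over 6 libraries, of which replicate 1 stood apart in base composition.

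The E proteins, the partners that ID proteins trap, were present in 2 of 3 cases. TCF3, which gives the E12 and E47 proteins, measured 64.4, 61.2 and 62.3 FPKM with lentivirus-NC, against 94.5, 65.4 and 72.6 FPKM with lentivirus-circCSPP1 (replicates 1, 2 and 3). Its groups did not overlap, but replicate 1 was far above replicates 2 and 3, and the log2 fold change of 0.29 did not pass (limma adjusted p = 0.22). Without replicate 1 it was 0.14, and after the GC and length correction 0.26 with an adjusted p of 0.021. TCF12 ranged from 27.7 to 40.5 FPKM with overlapping groups, and TCF4 was at 0 in all but 1 library (0.15 FPKM).

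Of the ligands, BMP4 was expressed at a low level and BMP2 hardly at all. BMP4 measured 2.21, 1.71 and 1.38 FPKM with lentivirus-NC, against 1.22, 1.78 and 1.85 FPKM with lentivirus-circCSPP1 (replicates 1, 2 and 3). The spread inside each group exceeded the difference between the means, 1.77 ± 0.418 against 1.62 ± 0.345 FPKM (SD, n = 3; log2 fold change -0.08, 95% interval -0.44 to 0.29, limma adjusted p = 0.79). The sign of this small value turned in 3 of the 17 alternatives. BMP2 was at 0 in 4 libraries, at 0.1 FPKM in lentivirus-NC replicate 1 and at 0.03 FPKM in lentivirus-circCSPP1 replicate 2, about 11 and 4 fragments. Among 12 further ligands of the family, 2 were high enough to be tested, BMP8A and BMP8B, and neither passed. BMP8B was the most abundant of the 12 with 3.36 to 4.30 FPKM, and both values are uncertain, since BMP8A and BMP8B are near-identical copies whose fragments can be shared.

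The receptors BMPR1A, a type I receptor kinase, and BMPR2, the type II kinase that activates it, both measured under 11 FPKM. BMPR1A gave 9.55, 9.47 and 9.99 FPKM with lentivirus-NC, against 7.78, 10.9 and 9.54 FPKM with lentivirus-circCSPP1 (replicates 1, 2 and 3). The groups overlapped, with a log2 fold change of -0.05 (95% interval -0.36 to 0.27, limma adjusted p = 0.86), and GENCODE lists the pseudogenes BMPR1AP1 and BMPR1AP2, with which fragments may be shared. BMPR2 gave 7.24, 7.5 and 6.58 FPKM with lentivirus-NC, against 3.75, 6.49 and 5.43 FPKM with lentivirus-circCSPP1 (replicates 1, 2 and 3). Every lentivirus-circCSPP1 library was below every lentivirus-NC library, and replicate 1 was the lowest by a wide margin. The log2 fold change was -0.40 (SE 0.17, limma adjusted p = 0.18), and it was -0.22 without lentivirus-circCSPP1 replicate 1 (adjusted p = 0.16). After the GC and length correction it was -0.33 with an adjusted p of 0.015, in a setting where 3512 of 12322 genes passed.

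Beside them, the type I receptor ACVR1 measured 18.0 ± 0.773 FPKM with lentivirus-NC, against 22.6 ± 1.02 FPKM with lentivirus-circCSPP1 (SD, n = 3), with groups that did not overlap (log2 fold change 0.32, limma adjusted p = 0.068). ACVR1 passed in 5 of the 18 alternatives, without lentivirus-circCSPP1 replicate 1 (adjusted p = 0.015), with median-ratio scaling (0.048), with unmoderated variances (0.047), and after the GC and length correction (0.020) or a fit that added a term for the replicate number to it (0.028). BMPR1B did not exceed 0.95 FPKM and ACVRL1 did not exceed 0.24 FPKM. The type II receptors ACVR2A and ACVR2B, at 0.92 to 1.70 FPKM, did not pass.

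SMAD1, a carrier of the BMP signal to the nucleus, measured 34.6, 35.6 and 33.2 FPKM with lentivirus-NC, against 26.23, 33.01 and 30.43 FPKM with lentivirus-circCSPP1 (replicates 1, 2 and 3). The groups lay apart by a narrow gap, between 33.01 and 33.2 FPKM. The log2 fold change was -0.21 (SE 0.11, limma adjusted p = 0.26), and after the GC and length correction -0.20 (adjusted p = 0.0405). Without lentivirus-circCSPP1 replicate 1 it was -0.12. SMAD1-AS1 overlaps it on the opposite strand. SMAD5 and SMAD9, which do the same work, and SMAD4, the shared partner, overlapped between the groups and did not pass. SMAD5 passed without lentivirus-circCSPP1 replicate 1, its lowest library (log2 fold change 0.27, adjusted p = 0.024), a setting in which 3514 of 12334 genes passed.

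SMAD6, which blocks the BMP receptors and is itself induced by BMP, measured 4.05, 4.49 and 4.01 FPKM with lentivirus-NC, against 3.53, 2.62 and 3.49 FPKM with lentivirus-circCSPP1 (replicates 1, 2 and 3). All lentivirus-circCSPP1 libraries were lower. The means were 4.18 ± 0.266 and 3.21 ± 0.514 FPKM (SD, n = 3), for a log2 fold change of -0.31 (SE 0.13, limma adjusted p = 0.17), and after the GC and length correction -0.33 (adjusted p = 0.041). Without lentivirus-circCSPP1 replicate 2, the lowest library, it was -0.1995. About 349 to 560 fragments per library lay behind it.

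SMAD7, the other inhibitory SMAD, rose with circCSPP1. It measured 5.57, 4.43 and 4.79 FPKM with lentivirus-NC, against 10.2, 9.42 and 11.3 FPKM with lentivirus-circCSPP1 (replicates 1, 2 and 3). The 2 groups were far apart. The log2 fold change was 0.93 (SE 0.12, limma adjusted p = 0.0059), and it passed in each of the 18 alternatives. The SMAD7 to SMAD6 ratio was 0.99 to 1.38 in lentivirus-NC and 2.89 to 3.60 in lentivirus-circCSPP1, with an exact two-sided permutation p = 0.10, the smallest possible, and this pair was also picked after the values were seen. By comparison the SMAD6 to SMAD1 ratio overlapped between the groups (0.117 to 0.126 against 0.0794 to 0.135, exact permutation p = 0.70). The BMPR2 to BMPR1A ratio did not overlap. It was 0.659 to 0.792 in lentivirus-NC and 0.482 to 0.593 in lentivirus-circCSPP1 (exact permutation p = 0.10, again the smallest possible).

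**Figure D2:**
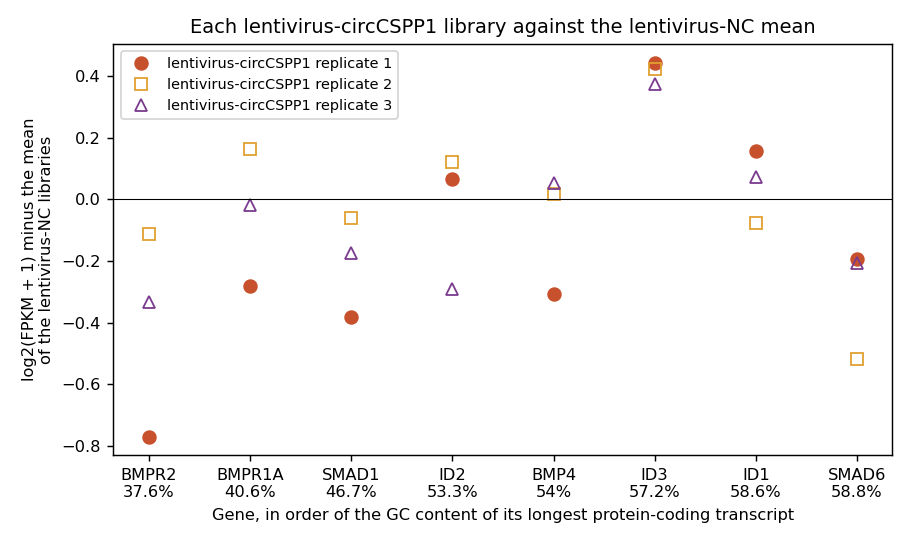
Each lentivirus-circCSPP1 library against the lentivirus-NC mean, on log2(FPKM + 1), for the 8 tested members in order of transcript GC content. Replicate 1 (filled circles) is the lowest library of its group in the 3 genes with the lowest GC content, BMPR2, BMPR1A and SMAD1, and the highest in ID3, ID1 and SMAD6.

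Replicate 1 was the lowest of the 3 lentivirus-circCSPP1 libraries for BMPR2 (transcript GC content 37.6%), BMPR1A (40.6%), SMAD1 (46.7%) and BMP4 (54.0%), and the highest for ID3 (57.2%), ID1 (58.6%) and SMAD6 (58.8%). For ID2 (53.3%) it was in the middle, so BMP4 and ID2 were not in the order of GC content.

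The other genes of the pathway, in lists of 64 genes, were read from the same test. Of these, 31 were tested, 6 rose, 3 fell and 22 did not pass, where 11.4% of all genes tested passed. Their median log2 fold change was 0.07. Groups did not overlap for 17 of the 31, beside 36.4% of all genes tested. Without lentivirus-circCSPP1 replicate 1, 14 of the 31 passed, beside 3514 of 12334 genes. After the GC and length correction 12 of the 31 passed, beside 3512 of 12322 genes. None of these shares was tested, and the lists were written with earlier results of these data known.

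**Figure D3:**
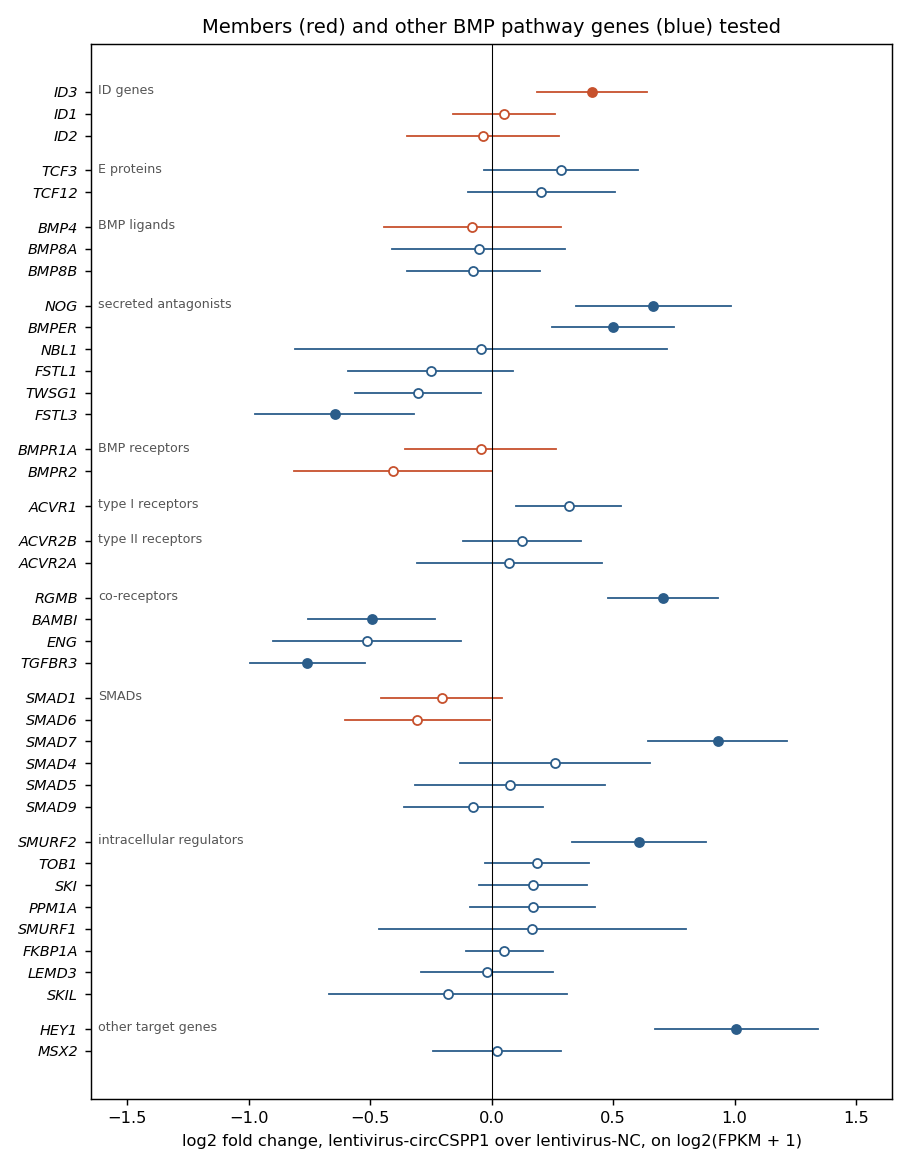
Log2 fold change (lentivirus-circCSPP1 over lentivirus-NC, on log2(FPKM + 1)) of the 8 tested members in red and the 31 tested pathway genes in blue, by role, with 95% intervals from limma. Filled points have an adjusted p under 0.05: ID3 among the members, and 9 pathway genes, with values that are smaller for low genes than at a lower pseudocount.

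The co-receptors changed in both directions. RGMB, a membrane-anchored BMP co-receptor, measured 10.02, 10.25 and 9.28 FPKM with lentivirus-NC, against 16.3, 17.4 and 16.4 FPKM with lentivirus-circCSPP1 (replicates 1, 2 and 3), a log2 fold change of 0.71 (SE 0.097, limma adjusted p = 0.0066). Its exons overlap antisense genes, RGMB-AS1 among them. TGFBR3, or betaglycan, which presents TGF-beta, inhibin and BMP ligands, fell from 2.59 ± 0.0306 to 1.123 ± 0.108 FPKM (SD, n = 3), for a log2 fold change of -0.76 (limma adjusted p = 0.0060). With a pseudocount of 0.01 in place of 1, which weighs less on low values, the log2 fold change of TGFBR3 was -1.20, and that of BAMBI, described next, was -0.93. RGMB and TGFBR3 passed in each alternative in which they were tested, leaving out any 1 library included. BAMBI, a pseudoreceptor that lacks the kinase and dampens signalling, fell from 1.55 ± 0.161 to 0.813 ± 0.136 FPKM (log2 fold change -0.49, limma adjusted p = 0.032). Its adjusted p was 0.062 to 0.13 when any single library other than lentivirus-circCSPP1 replicate 1 was left out, 0.090 under quantile normalization and 0.053 with unmoderated variances, and it passed in 9 of 17 alternatives. ENG, endoglin, measured 4.34 ± 0.883 and 2.73 ± 0.488 FPKM (SD, n = 3), with every lentivirus-circCSPP1 library lower, and did not pass (limma adjusted p = 0.091). It did pass without lentivirus-circCSPP1 replicate 1 (log2 fold change -0.59, adjusted p = 0.047), and after the GC and length correction, with or without the replicate block.

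Of 16 secreted antagonists, 6 were tested, and NOG and BMPER rose while FSTL3 fell. NOG encodes noggin, which binds BMP ligands and keeps them off their receptors, and it measured 1.11, 0.97 and 0.72 FPKM with lentivirus-NC, against 1.96, 2.51 and 1.75 FPKM with lentivirus-circCSPP1 (replicates 1, 2 and 3). All lentivirus-circCSPP1 libraries were higher (log2 fold change 0.67, limma adjusted p = 0.024), and with a pseudocount of 0.01 the log2 fold change was 1.15. BMPER, a secreted modulator of BMP activity, rose from 4.83 ± 0.356 to 7.24 ± 0.431 FPKM (SD, n = 3; log2 fold change 0.50, adjusted p = 0.028). FSTL3, which binds activins, measured 34.92, 37.02 and 32.99 FPKM with lentivirus-NC, against 26.3, 18.1 and 22.2 FPKM with lentivirus-circCSPP1 (log2 fold change -0.65, limma adjusted p = 0.028). Leaving out any 1 lentivirus-NC library or lentivirus-circCSPP1 replicate 3 ended these 3 calls, with adjusted p of 0.054 to 0.095 for NOG, 0.090 to 0.13 for BMPER and 0.086 to 0.12 for FSTL3, and NOG also lost its call without lentivirus-circCSPP1 replicate 2 (0.051). With unmoderated variances the adjusted p was 0.073 for NOG and 0.098 for FSTL3. TWSG1 was the most abundant antagonist by its mean over all 6 libraries. It measured 46.45 to 46.87 FPKM with lentivirus-NC, against 32.22 to 41.03 FPKM with lentivirus-circCSPP1. These groups did not overlap, but TWSG1 did not pass (log2 fold change -0.30, limma adjusted p = 0.12). It passed without lentivirus-circCSPP1 replicate 1 (log2 fold change -0.19, adjusted p = 0.041). NBL1 had nearly the same mean as TWSG1 under lentivirus-circCSPP1, ranged from 24.1 to 58.1 FPKM with overlapping groups, and did not pass.

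Inside the cell, SMURF2, a ubiquitin ligase that works with SMAD7 to remove receptors, rose from 18.7 ± 0.327 to 29.22 ± 4.001 FPKM (SD, n = 3; log2 fold change 0.61, limma adjusted p = 0.020). Without any 1 lentivirus-NC library or lentivirus-circCSPP1 replicate 3 its adjusted p was 0.083 to 0.092, and with unmoderated variances it was 0.064. GENCODE lists a pseudogene, SMURF2P1, and an overlapping gene on the opposite strand, CEP95. The other 7 tested genes of this group, SMURF1, PPM1A, FKBP1A, TOB1, SKI, SKIL and LEMD3, did not pass, although TOB1 passed without lentivirus-circCSPP1 replicate 1 (log2 fold change 0.25, adjusted p = 0.035), and FKBP1A was the most abundant with 160.3 to 173.1 FPKM. GENCODE also lists pseudogenes of FKBP1A.

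Among the other BMP target genes, HEY1 and MSX2 were tested. HEY1, a repressor induced by Notch as well as by BMP, measured 1.07, 0.82 and 0.52 FPKM with lentivirus-NC, against 2.85, 2.69 and 2.28 FPKM with lentivirus-circCSPP1 (replicates 1, 2 and 3). Its groups were clearly apart, and the log2 fold change was 1.01 (SE 0.14, limma adjusted p = 0.0075), which understates the change of so low a gene (1.74 with a pseudocount of 0.01). It passed in all 17 alternatives in which it was tested. MSX2, at 1.6 to 2.02 FPKM, had a log2 fold change of 0.02 (95% interval -0.24 to 0.28).

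**Figure D4:**
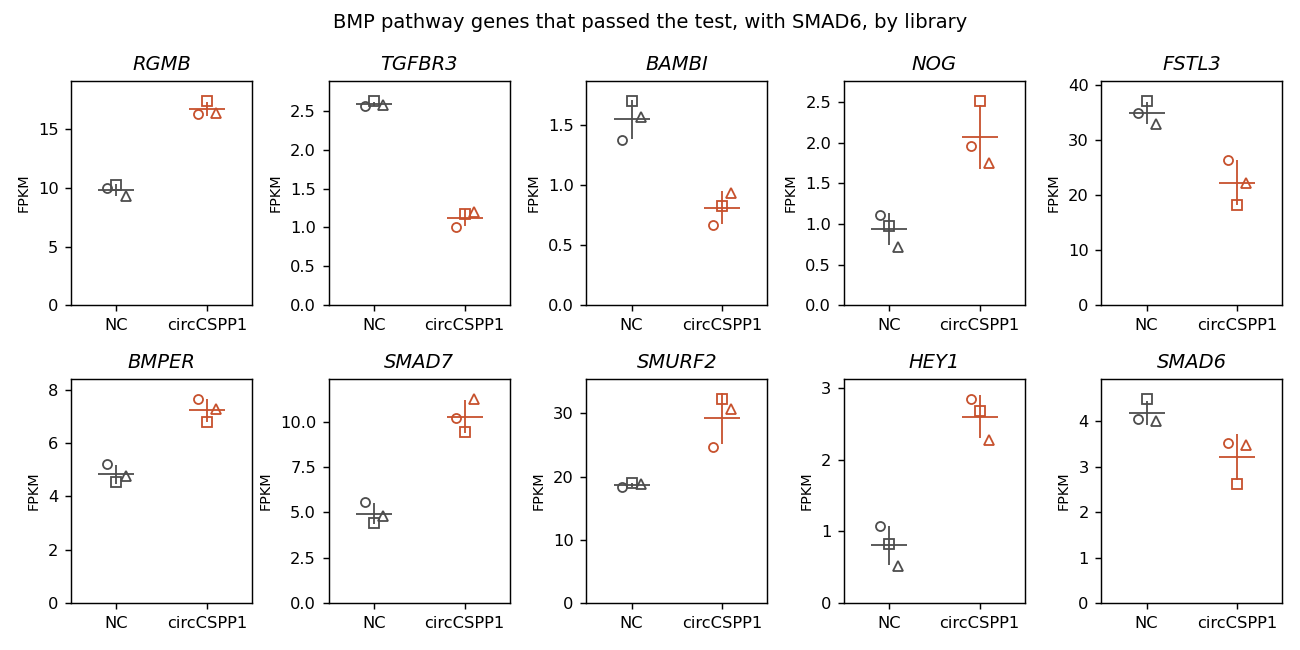
FPKM by library of the 9 pathway genes that passed, with SMAD6 for comparison. Circle, square and triangle are replicates 1, 2 and 3, bars are the mean and SD of 3 libraries, each axis starts at 0, and in all 10 panels the groups do not overlap.

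The promoters of the SMAD genes and of others in the pathway are shown for their SMAD motifs. Windows from 250 bases before to 50 after the start site were taken from RefSeq (GRCh38.p14) and searched on both strands for GGCGCC, the GC-rich element that SMAD1 and SMAD5 are known to bind, and for GTCTAGAC, the palindrome that SMAD4 is known to bind. Neither motif contains the other. Windows were listed for 9 of the 10 members, all but BMP2. GTCTAGAC was found in 71 of 35116 windows of all genes (0.202%), and among the members it was in that of SMAD6, at -12 from the start site. GGCGCC was in 19.2% of all windows and in those of 3 members, BMP4, BMPR2 and SMAD1, a gene counting where any of its listed windows held it. SMAD1 had 5 windows and BMP4 had 3. Counts of genes therefore cannot be set against the 19.2%, which is a share of windows. Neither motif was in the windows of ID1, ID2, ID3 and ID4, nor in those of SMAD7, and bases outside the windows were not searched. Of the 17 named pathway genes, 15 had windows, and GGCGCC was in those of 5 (ACVR1, BAMBI, FSTL3, BMPER and SMAD4). A match is a description of the letters, not of a bound site. SMAD1 had 4 matches of GGCGCC, BAMBI and BMPER 3 each, and BMP4 and FSTL3 2 each, and 1 match is shown per printed gene. The motif is in capitals, 5′ to 3′ on the strand of the gene, at chr15:66702213-66702242 for SMAD6, chr2:202376169-202376196 for BMPR2, chr4:145482230-145482257 for SMAD1, chr14:53955033-53955060 for BMP4 and chr10:28677329-28677356 for BAMBI.
SMAD6: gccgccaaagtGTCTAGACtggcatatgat
BMPR2: atcccgccgccGGCGCCgccgccgccgc
SMAD1: ccccccatgatGGCGCCtcccgtctgct
BMP4: ggtcgcgcaggGGCGCCcgcggcctccg
BAMBI: ccccagacgccGGCGCCgctcggagccg

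**Figure D5:**
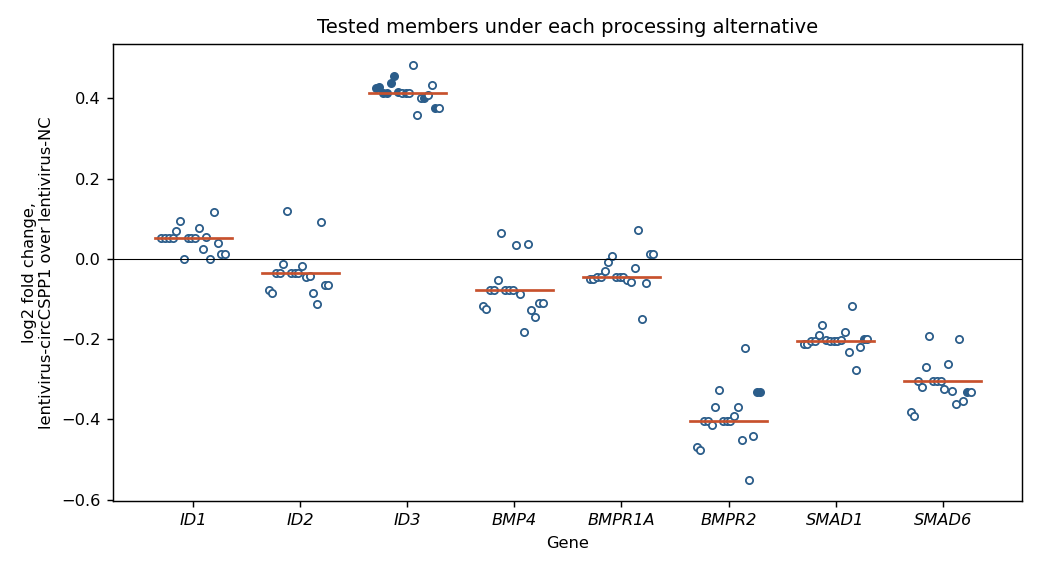
Log2 fold change of the 8 tested members under each processing alternative. Points are alternatives, filled where the adjusted p is under 0.05, and red lines are the values reported above. ID3 stays between 0.36 and 0.48, BMPR2, SMAD1 and SMAD6 stay below 0, and ID1, ID2, BMP4 and BMPR1A lie on both sides of 0.

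On GRCh38 (GENCODE release 29), ID1 lies on chromosome 20 from 31605283 to 31606515 on the plus strand and ID3 on chromosome 1 from 23557918 to 23559794 on the minus strand. SMAD6 lies on chromosome 15 from 66702228 to 66782848 and BMPR2 on chromosome 2 from 202376936 to 202567751, both on the plus strand. SMAD1 (chromosome 4, 145481194 to 145558079), BMPR1A (chromosome 10, 86756601 to 86932838) and ID2 (chromosome 2, 8678845 to 8684453) lie on the plus strand and BMP4 (chromosome 14, 53949736 to 53958761) on the minus strand. The values are those of whole genes and do not separate exons or isoforms.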

How the data were processed

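RNA was measured in 6 DU145 libraries, 3 lentivirus-NC and 3 lentivirus-circCSPP1, grouped by their titles. The deposited table, made by the authors from paired-end reads of polyadenylated RNA, holds 1 FPKM value per gene and library, rounded to 2 decimals. The genome build in the submitters' processing notes is hg38, and the aligner, counting program and annotation are not given in the sources used here. FPKM is relative to the library total, so a gene also moves when others take more or less of it. No column of per-sample values was left unused (0).

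Values were taken to log2(FPKM + 1). Genes averaging 1 FPKM or more entered limma 3.58.1 under R 4.3.3 (trend, two-sided, no covariate) and Benjamini-Hochberg adjustment. The fit was tested on simulated data, with noise set from the spread of the lentivirus-NC libraries and planted changes larger than that of any member. It therefore does not speak to changes as small as those of the members. Depth was read from low values of genes with 1 transcript under 800 nt, whose FPKM times length fell on whole fragments (within 0.15) in 93.5% to 98.7% of 62 to 77 values. Alternatives were pseudocounts of 0.1 and 0.01, no filter or one at 5 FPKM, quantile normalization, median-ratio scaling, TPM units, robust eBayes, unmoderated variances, a replicate block and leaving out each library. A loess correction for GC content and length of the longest protein-coding transcript, alone and with the block, was an alternative chosen after seeing the data. Named genes were the 10 members, pathway genes past the threshold or most abundant in their list, and the 5 genes closest to ID1. BMPR1B, ACVRL1, TCF4, TCF12, ENG, SMAD5, SMAD9, ACVR2B, NBL1 and the other intracellular regulators were named to account for their lists, and CSPP1 as the source of the circle. The members and lists were chosen with earlier results of these data known. Figures were drawn with matplotlib 3.10.9. Some genes of the prostate luminal marker list are not reported here.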

Additional observations from a re-analysis of the deposited data

How the results depend on the processing

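Of 141 values of single members under the alternatives, 119 kept their sign and their side of the threshold, 8 lost a call, 4 gained one and 10 turned sign, all 10 in genes with small differences. With a library left out, ID2 ranged from -0.1137 to 0.0928, BMP4 from -0.1816 to 0.036, BMPR1A from -0.1491 to 0.073, ACVR2A from -0.027 to 0.2202 and MSX2 from -0.032 to 0.0793 on the log2 scale. The turned values were -0.0015 for ID1 without lentivirus-circCSPP1 replicate 1, 0.12 (quantile normalization) and 0.0928 (without lentivirus-circCSPP1 replicate 3) for ID2, and 0.063 (quantile), 0.034 (without lentivirus-NC replicate 1) and 0.036 (without lentivirus-circCSPP1 replicate 1) for BMP4. For BMPR1A they were 0.0063 (quantile), 0.073 (without lentivirus-circCSPP1 replicate 1) and 0.012 (GC and length correction, with or without the block). Among the named pathway genes BMP8B (0.042) and FKBP1A (-0.032) turned under quantile normalization, ACVR2A was -0.027 to -0.026 without replicate 3 of either group, and MSX2 was -0.019 without lentivirus-NC replicate 3 and -0.032 without lentivirus-circCSPP1 replicate 2.

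Members past the threshold numbered 1, against 0 with no moderation of the variance, 4 after the GC and length correction (ID3, BMPR2, SMAD1 and SMAD6) and 0 to 1 with any library left out. Pathway genes past it numbered 9, against 5 with a mean of at least 5 FPKM, where 18 were tested, and 4 to 14 with a library left out. Over all 12322 genes tested the number was 1399, against 834 with no moderation and 3512 after the GC and length correction. That correction thus raised the number of calls among all genes, not only among the members. With a library left out the number was 293 to 3514, the highest without lentivirus-circCSPP1 replicate 1, where 12334 genes were tested. The cause was not tested.

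With the replicate number as a block, 923 genes, 0 members (ID3, adjusted p = 0.075) and 7 pathway genes passed, BMPER (0.063) and BAMBI (0.064) being lost, and with block and correction together 2696, 1 (BMPR2; ID3 was at 0.057) and 12. The series' text calls the samples paired without saying by what. Deviations of same-numbered libraries correlated at 0.073, 0.0065 and 0.057, and those of differently numbered ones at -0.067 to 0.036. Values this small do not settle whether the numbers pair the libraries. The fit without the block was kept as the main one, with the block as an alternative. Median-ratio scaling changed the split of calls to 647 higher and 669 lower. Depth limits ID4 and BMP2, with at most 9 and 11 fragments in a library.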
